A study of Mus musculus with 14 samples.

Results

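The Tet3 target site of a multiplexed base-editing experiment in mouse embryos was examined base by base, because the C next to its target C was read as a mixture of T, G and A. Its members are all 26-base windows that 4 of the 7 deposited tables file under Tet3, 52 windows of the 306 in the series. They come from 26 edited embryos of 8 labelled samples, from 13 further edited embryos whose number no labelled sample has, and from 13 control embryos.

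Embryos had been injected as zygotes with mRNA of the cytosine base editor hA3A-eBE3-Y130F and with sgRNAs, so that stop codons would form in several genes at once, and the target sites were then amplified from genomic DNA and sequenced. In Tet-TKO embryos the sgRNAs were those against the 3 Tet genes, Tet1 to Tet3. To these, 4KO embryos added the sgRNA for Dnmt1, 5KO embryos those for Dnmt3a and Dnmt3b, and 6KO embryos those for all 3 Dnmt genes. All groups had C57BL/6 sires and F1 dams, described in the study's methods as Oct4-EGFP males on C57BL/6J and B6D2F1 females. The Tet-TKO table covers E7.5, E8.5, E9.5 and E10.5 (embryonic days), the 4KO and 5KO tables E7.5 to E9.5, and the 6KO table E6.5 to E8.5. What the control embryos were injected with, and how embryos were picked for sequencing, was not given in the sources used here, and an embryo kept for its genotype or look would shift the shares. DNA was extracted from embryos, so a share is an average over the cells taken from each.

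TET3 is one of the 3 TET dioxygenases, which oxidise methylated cytosine as a step towards demethylation, and it is the family member supplied by the oocyte and known for oxidising the paternal genome in the zygote. Cytosine base editors are fusions of a nicking Cas9 with a deaminase (an engineered APOBEC3A of human origin in hA3A-eBE3-Y130F) and an inhibitor of uracil glycosylase. The deaminase turns C into U on the strand displaced by the guide, and U is copied as T. Removal of the U by uracil glycosylase leaves an abasic site, across from which other bases can be placed, so that G and A are the known by-products of these editors. APOBEC3A is known to favour a C that follows a T.

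The Tet3 protospacer occurs 1 time in GRCm38, at chr6:83404641-83404660 on the minus strand, with the PAM GGG. It lies inside exon 4 of 12 of transcript Tet3-203 and exon 3 of 11 of Tet3-202, in coding sequence of Tet3 (ENSMUSG00000034832.15, minus strand, like the guide). Position 1 is the protospacer base farthest from the PAM, and bases before it are negative. The target is C8 at 83404653, and C8T turns a CAG codon into a stop in 2 of 2 complete coding transcripts, as Q178* of 1803 codons in Tet3-203 and as Q43* of 1668 in Tet3-202. Residues are numbered after Tet3-203 from here on. C7 at 83404654 is the third base of the codon before it (GAC). There C7T is synonymous (D177D), whereas C7G and C7A both give D177E, a change of the last residue before the new stop. The 26-base window (3 flanking bases, protospacer and PAM) is given here as the reference and as each product that the shares point to, with C7 and C8 or their replacements in capitals.

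Tet3 reference: gcgggtagaCCagaagcccgactggg
stop with C7T (D177D): gcgggtagaTTagaagcccgactggg
stop with C7G (D177E): gcgggtagaGTagaagcccgactggg
stop with C7A (D177E): gcgggtagaATagaagcccgactggg
stop with C7 unconverted: gcgggtagaCTagaagcccgactggg

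In the control embryos C7 was read as C in nearly all reads. Its C share was listed at 100% in 9 of the 13 and at 96% to 99% in the other 4, so no control embryo held another base at C7 at the level of a strain variant, although the dams carry a second strain. All 4 shares are rounded to 1 point at C7. The 3 control embryos of the 5KO table stood apart from the other 10. Their C8T shares were 3.27% at E7.5, 1.22% at E8.5 and 2.16% at E9.5, against at most 0.46% in the others, and at E7.5 C7 was read as T in 2%, as G in 1% and as A in 1% of reads. The origin of these reads was not tested.

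The target itself was nearly all T in edited embryos. C8T ran from 94.8% to 99.9% over the 26 embryos of labelled samples, with a median of 99.1%, and from 96.3% to 99.8% over the 13 further embryos. Reads with A or G at C8 together made up between 0.0466% and 2.35% of reads in labelled embryos (median 0.0788%), and 0.0873% to 0.43% in control embryos. The 2.35% came from the E9.5 embryo of Tet-TKO replicate 1. In that embryo bases other than the reference averaged 2.48% over the window positions that hold no C. In 24 of the 26 labelled embryos all 18 such positions given to 1 point were listed at 100% reference, the other exception being the E6.5 embryo of 6KO replicate 1. The E9.5 embryo of Tet-TKO replicate 1 is therefore given with and without where it bears on a result. No run left out the 6KO embryo alone, although runs over E7.5 and E8.5 embryos do not hold it.

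At C7, 1 base to the side, the same embryos held mixtures. Over the 26 labelled embryos C7T ran from 3% to 95% (median 47.5%), C7G from 1% to 94% (median 36%), C7A from 0% to 70% (median 2.5%), and unconverted C from 0% to 39% (median 1%). T was the most frequent base in 13 embryos, in 1 of them tied with G. G led in 11, A in 1 and C in 1. G was above T in 12 of the 26, and G was at 5% or more in 25, the exception being the E8.5 embryo of 6KO replicate 2 with 1%. A reached 10% in 9 of the 26.

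**Figure D1:**
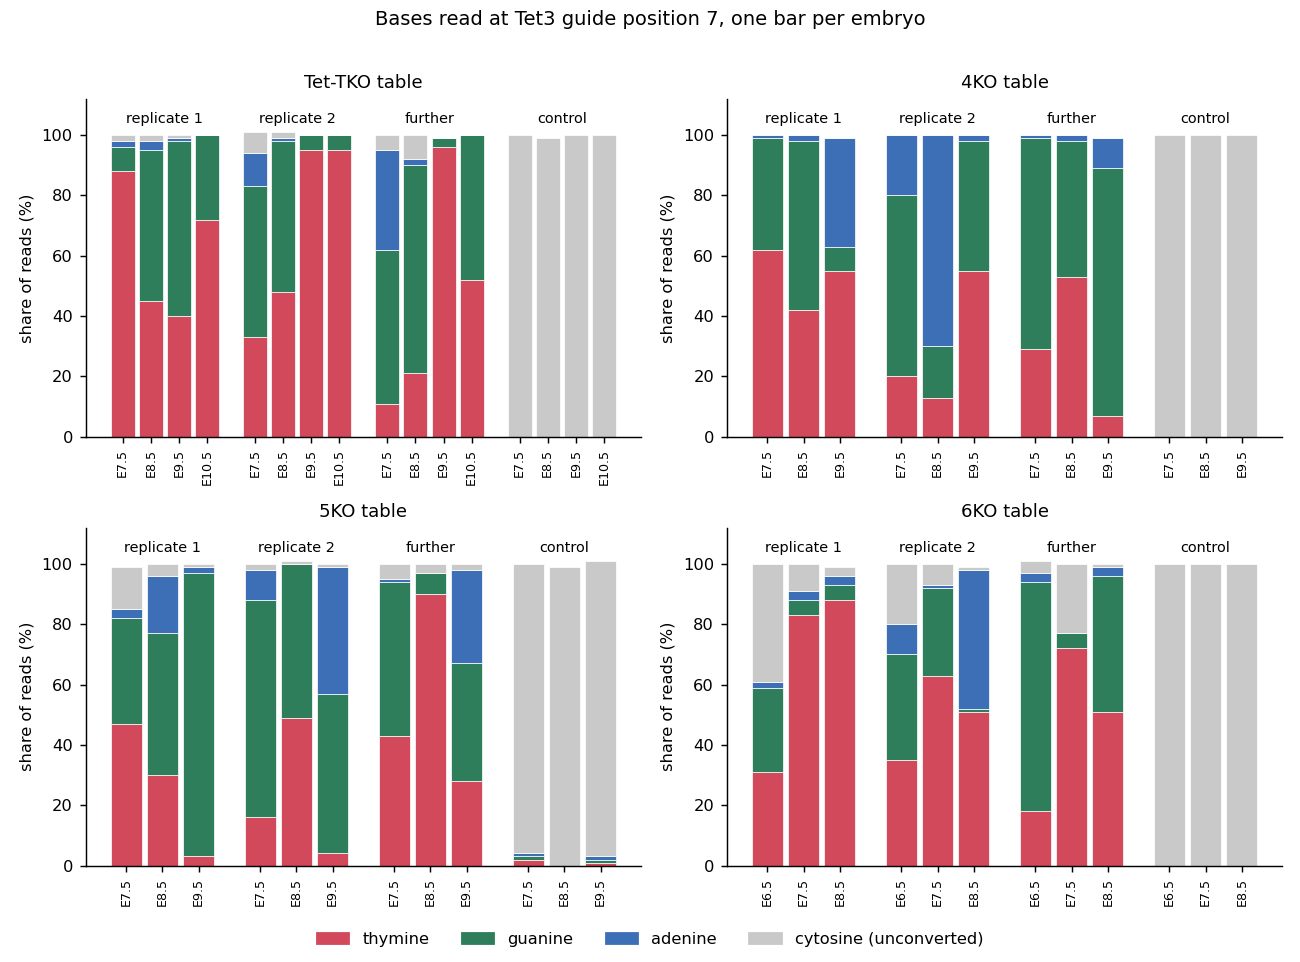
Share of reads (%) with thymine, guanine, adenine or unconverted cytosine at Tet3 guide position 7, stacked for each embryo and ordered by stage within replicates 1 and 2, the further embryos and the control embryos of each table. Control bars are cytosine at 96% or more, while in the edited embryos the leading base is thymine or guanine with few exceptions and can differ between embryos of 1 replicate, and bars end within 1 point of 100% because shares are rounded.

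In Tet-TKO replicate 1, C7G was 8% at E7.5, 50% at E8.5, 58% at E9.5 and 28% at E10.5, beside C7T of 88%, 45%, 40% and 72%. In replicate 2, C7G was 50%, 50%, 5% and 5% at these stages and C7T 33%, 48%, 95% and 95%. The remainder was small. A and unconverted C were each at 3% or less except in the E7.5 embryo of replicate 2, with 11% A and 7% C.

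Unconverted C at C7 was listed at 0% in all 6 embryos of 4KO, as it was in 3 of the 8 Tet-TKO embryos and in none of 5KO or 6KO. C7G was 37%, 56% and 8% at E7.5, E8.5 and E9.5 of replicate 1, and 60%, 17% and 43% in replicate 2. The embryos with little G had much A. C7A was 36% in the E9.5 embryo of replicate 1 and 70% in the E8.5 embryo of replicate 2, the only labelled embryo in which A led, and it was 20% in the E7.5 embryo of replicate 2 and at most 2% in the other 3.

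In 5KO, G led in 5 of 6 embryos. C7G was 35%, 47% and 94% at E7.5, E8.5 and E9.5 of replicate 1, and 72%, 51% and 53% in replicate 2. C7T was 3% and 4% in the E9.5 embryos, where the rest was G in replicate 1 and G with 42% A in replicate 2. The E7.5 embryo of replicate 1, the one led by T (47%), kept 14% unconverted C.

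In 6KO, G led in no labelled embryo. C7G was 28%, 5% and 5% at E6.5, E7.5 and E8.5 of replicate 1, and 35%, 29% and 1% in replicate 2. C7T was 31%, 83% and 88% in replicate 1 and 35%, 63% and 51% in replicate 2. Beside its 1% G, the E8.5 embryo of replicate 2 held 46% A. Unconverted C was highest in the E6.5 embryos, 39% and 20%, and was 9% and 7% at E7.5 and 3% and 1% at E8.5. In the 39% embryo, bases other than the reference averaged 0.885% over the non-C positions, and whether this bears on its C share was not tested.

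The 13 further edited embryos held mixtures of the same kind. Their C7T ran from 7% to 96% (median 43%), C7G from 3% to 82% (median 48%), C7A from 0% to 33% (median 2%) and unconverted C from 0% to 23% (median 2%). G was above T in 7 of the 13. Unconverted C was again listed at 0% in the 3 embryos of the 4KO table. In the 6KO table the E6.5 embryo had 76% G and 4% C, and the E7.5 embryo had 5% G and 23% C, so high unconverted C was not limited to E6.5 and not present in each E6.5 embryo. Since no labelled sample has their number, these embryos enter no test.

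The number of bases that shared an embryo varied. In 6 labelled embryos 1 base reached 10% at C7, in 12 embryos 2 bases did, in 7 embryos 3 bases did, and at E6.5 in 6KO replicate 2 all 4 did, with 35% T, 35% G, 10% A and 20% C. A diploid cell has a pair of copies of Tet3, so the 8 embryos with 3 or more such bases held more bases at C7 than a genotype shared by all cells can have. At the other end, C7T and C7G both lay between 40% and 60% in 6 of 26 labelled and 4 of 13 further embryos, a range chosen after the values were seen.

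Because both shares come from the same 92-base amplicon (83404597 to 83404688), they set a lower limit on reads that carry both changes, if the same reads cover C7 and C8. The limits allow an error of 0.5 points for each rounded share at C7. Reads with the stop and D177E, that is C8T with G or A at C7, made up at least 93.3% at E9.5 in 5KO replicate 1, at least 92.4% in the E9.5 embryo of replicate 2 and at least 85.7% at E8.5 in 4KO replicate 2. The lowest such limit in a labelled embryo was 3.66%, at E10.5 of Tet-TKO replicate 2. Reads with C8T and unconverted C7 made up at least 33.3% at E6.5 in 6KO replicate 1. G and A at C7 together were above 50% in 12 of the 26 labelled embryos. D177E lies directly before the stop, so in reads with C8T it concerns the last residue of a product of 177, and the stop codon stands at 9.87% of the length of the protein encoded by Tet3-203.

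Where the 2 positions differed in unconverted C, it was C7 that kept more. The C share at C7 was above that at C8 by more than 1 point in 7 of 26 labelled and 4 of 13 further embryos, and below it by more than 1 point in none. The widest gap was at E6.5 in 6KO replicate 1, with 39% at C7 and 4.39% at C8. It was followed by 23% and 3.01% in the further E7.5 embryo of the 6KO table, 20% and 2.39% at E6.5 in 6KO replicate 2, and 14% and 2.08% at E7.5 in 5KO replicate 1.

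**Figure D2:**
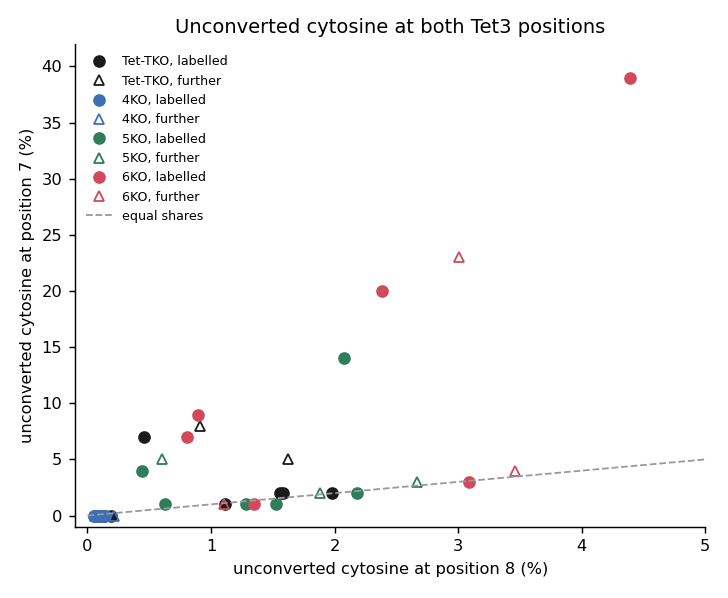
Unconverted cytosine (% of reads) at Tet3 position 7 against position 8 for the 39 edited embryos, coloured by table, filled for labelled samples and open for further embryos; the dashed line marks equal shares. Points lie near or above the line, up to 39% at position 7 beside 4.39% at position 8.

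The question of whether the product mixture differed between the sets of sgRNAs was put to the sample means, each the mean over the 3 or 4 embryos of a sample. C7G averaged 36.0% and 27.5% in the 2 Tet-TKO samples, 33.7% and 40% in 4KO, 58.7% and 58.7% in 5KO, and 12.7% and 21.7% in 6KO. Both 5KO samples were above, and both 6KO samples below, every sample of the other groups, while Tet-TKO and 4KO overlapped. The further embryos, which enter no test, did not keep this order. Their median C7G was 49.5% in the Tet-TKO table, 70% in 4KO, 39% in 5KO and 45% in 6KO. With SDs over the 2 samples of a group, the group means were 31.8% ± 6.01 in Tet-TKO, 36.8% ± 4.48 in 4KO, 58.7% ± 0 in 5KO and 17.2% ± 6.36 in 6KO. The equal 5KO samples hide a wide spread, since the SD over the 6 embryos was 21 points. In the exact permutation test across the 4 groups, p was 0.019 for C7G and 0.0952 after Benjamini-Hochberg adjustment over the 5 shares tested, so the difference of 41.5 points between the highest and lowest group did not pass 0.05. Without the E9.5 embryo of Tet-TKO replicate 1, a run added after seeing the data, the adjusted p was 0.0238 in the exact test. The 41.5 points lie between 5KO and 6KO, so leaving out this embryo could not change them. Over the E7.5 and E8.5 embryos, the stages that all groups share, the difference was 41.25 points (adjusted p = 0.333, exact permutation test). With medians over embryos it was 33 points (adjusted p = 0.143, exact permutation test).

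C7T averaged 61.2% and 67.8% in Tet-TKO, 53.0% and 29.3% in 4KO, 26.7% and 23% in 5KO, and 67.3% and 49.7% in 6KO. The 5KO samples were the lowest, both 4KO samples were below both Tet-TKO samples, and 6KO overlapped with Tet-TKO and with 4KO. In the further embryos 5KO was not the lowest, with median C7T of 36.5% in Tet-TKO, 29% in 4KO, 43% in 5KO and 51% in 6KO. The exact permutation test gave p = 0.0952 (adjusted 0.159). C7A averaged 1.5% and 3% in Tet-TKO, 13% and 30.7% in 4KO, 8% and 17.3% in 5KO, and 2.67% and 19% in 6KO, and every group but Tet-TKO spread over more than 9 points. It gave p = 0.381 by the same exact permutation test (adjusted also 0.381).

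**Figure D3:**
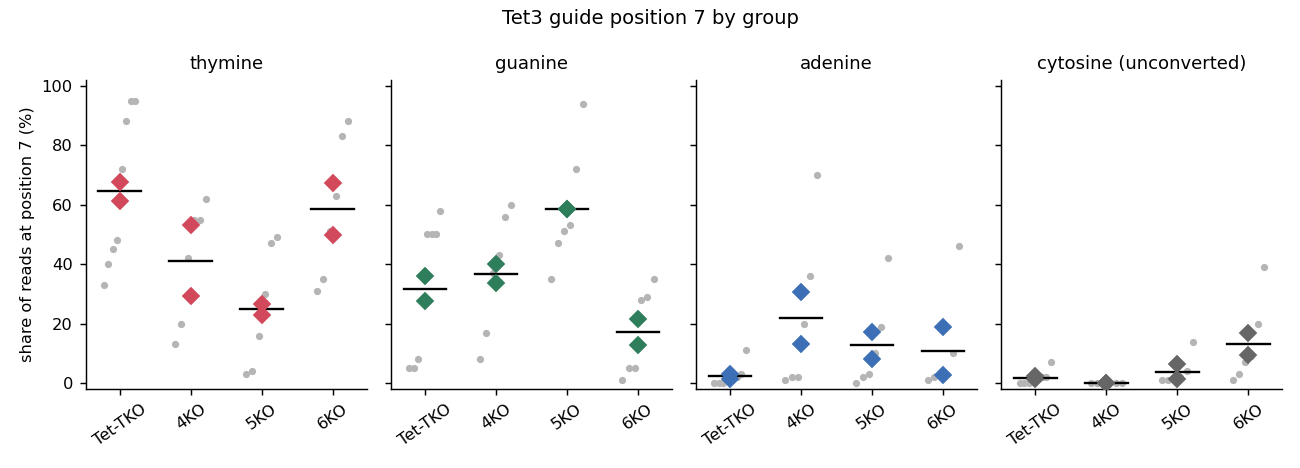
Share of reads (%) at Tet3 position 7 for each base and group; grey points are the labelled embryos, diamonds the 2 sample means and lines their mean. Guanine sample means are at 58.7% in 5KO and at 12.7% and 21.7% in 6KO, with embryos of the groups overlapping.

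Unconverted C at C7 averaged 1.25% and 2.25% in Tet-TKO, 0% and 0% in 4KO, 6.33% and 1.33% in 5KO, and 17% and 9.33% in 6KO. The 6KO samples were above and the 4KO samples below all others. The exact permutation test gave p = 0.0381 (adjusted 0.0952). The difference between highest and lowest group was 13.2 points over all embryos and 5.25 points over the E7.5 and E8.5 embryos, the stages that all groups share (adjusted p = 0.464, exact permutation test). C8T averaged 98.1% and 99.3% in the Tet-TKO samples, 99.9% and 99.8% in 4KO, 98.5% and 98.5% in 5KO and 96.9% and 98.4% in 6KO, with p = 0.152 in the exact permutation test (adjusted 0.19). Without the E9.5 embryo of Tet-TKO replicate 1 the adjusted p for C8T was 0.0238. Over the E7.5 and E8.5 embryos it was 0.333 (exact permutation test for both). Each group has a table of its own, so table and group cannot be told apart. The p-values give how often a relabelling of the samples set the group means at least as far apart. They rest on 2 samples per group, each a mean of a few embryos.

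The embryos that received Dnmt sgRNAs on top of the Tet sgRNAs were also set together against Tet-TKO. C7T was 41.5% ± 17.8 (SD, n = 6) with Dnmt sgRNAs and 64.5% ± 4.6 (SD, n = 2) without. Of the 6 samples, 1 was above the Tet-TKO mean. C7A was 15.1% ± 9.72 (SD, n = 6) against 2.25% ± 1.06 (SD, n = 2), higher than the Tet-TKO mean in 6 of 6 samples. The sample of 6KO replicate 1, at 2.67%, was above that mean by less than the rounding of 1 point. It was below the 3% of Tet-TKO replicate 2. Neither difference passed the two-sided exact permutation test (p = 0.179 and adjusted p = 0.357 for each). In the further embryos C7A was not lowest in Tet-TKO. It ran from 0% to 33% there, from 1% to 10% in 4KO, from 0% to 31% in 5KO and from 0% to 3% in 6KO. Over the E7.5 and E8.5 embryos alone, the stages that all groups share, the C7T difference was -6.5 points in place of -23. C7G was 37.6% ± 18.9 (SD, n = 6) against 31.8% (adjusted p = 0.714 by the same exact test), and its difference of 5.81 points turned to -4.92 over the shared stages. Unconverted C was 5.67% ± 6.71 (SD, n = 6) against 1.75% (adjusted p = 0.714, exact permutation test), and the difference of 3.92 points was 0.167 over the shared stages. The smallest p this split of 2 against 6 allows is 0.0357 before adjustment over the 4 shares, and 1 share alone at that p could not have passed after it.

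Stage was compared within samples, between the E7.5 and the E8.5 embryo of each, which are different animals. Unconverted C at C7 averaged 5.12% at E7.5 and 1.62% at E8.5. It was lower at E8.5 in 5 samples and equal in the other 3, 2 of which were the 4KO samples at 0% (difference -3.5 points, p = 0.0625 and adjusted p = 0.312, exact sign-flip permutation test). C7A averaged 6.38% at E7.5 and 18% at E8.5, a difference of 11.6 points carried mainly by the E8.5 embryos of 4KO replicate 2 (70%) and 6KO replicate 2 (46%), with an adjusted p of 0.664 in the exact sign-flip permutation test. C7T differed by -5.75 points and C7G by -2.38 points, each with an adjusted p of 0.812 in that exact test. C7G was 42 points higher at E8.5 in Tet-TKO replicate 1 and differed by -43 points in 4KO replicate 2, so the embryos of a sample lay farther apart than the means of the stages. C8T averaged 98.9% and 98.7% (adjusted p = 0.812, exact sign-flip permutation test).

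Outside C7 and C8 the Tet3 window was close to the reference. Besides them, only C-2 reached 5% in an embryo, a C that lies before the protospacer in a CG at 83404662. C-2T changes the CGG codon of arginine 175 (R175W).

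Tet3 flank, C-2 in capitals: gCgggtagaccagaagcccgactggg

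C-2T was 24% in the further E7.5 embryo of the 4KO table and 6% in the further E9.5 embryo of the 5KO table. Among labelled embryos, 6KO replicate 2 reached 6% at E6.5, and the 13 control embryos stayed at 1% or less. The other 36 edited embryos had 3% or less. At the other 23 positions no base reached 5%. The highest single share was 3% in labelled embryos, 0.205% in further embryos and 0.221% in control embryos. The 3% came from the Tet-TKO embryo with mismatches all along its window.

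**Figure D4:**
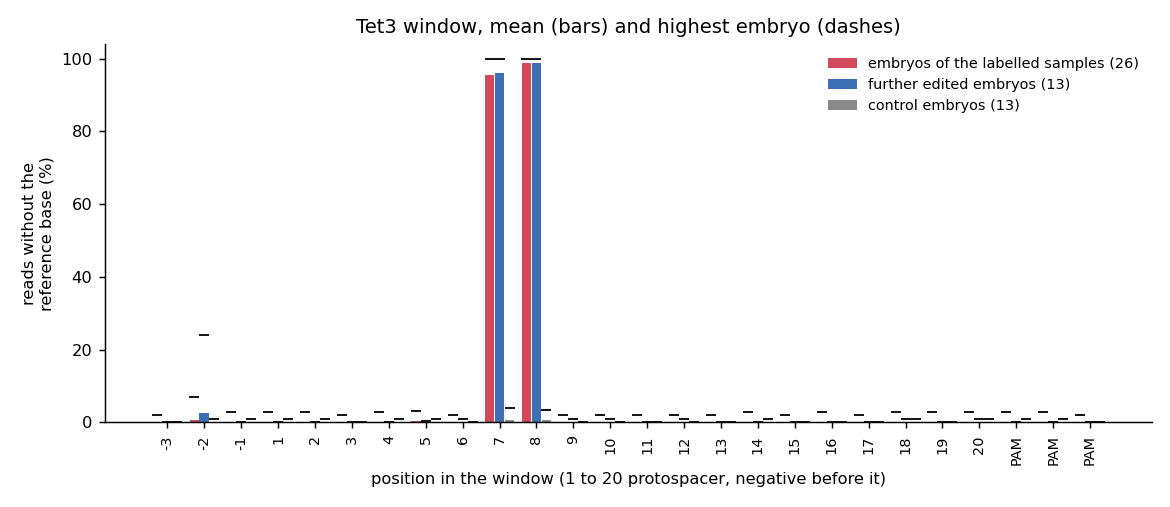
Reads without the reference base (%) at each of the 26 Tet3 window positions, as means (bars) and the highest embryo (dashes) for embryos of labelled samples, further edited embryos and control embryos. Positions 7 and 8 average above 95% in edited embryos and position -2 reaches 24% in 1 further embryo.

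C positions of the other windows were read in the same embryos for comparison. Besides Tet3 C7, 13 C positions had T, A and G together at 5% or more in the mean of a group with the Tet3 sgRNA. The share of converted reads that were not T, (A+G)/(A+G+T) from the summed shares of each sample, averaged 49.8% ± 21.1 (SD, n = 8 samples) at Tet3 C7, from 18.5% to 76.8%. It averaged at most 1.93% at the other 13. The most similar were Tet1 C2 at 1.93% ± 4.39 (SD, n = 8), Tet2 C11 at 1.10% ± 2.91 (SD, n = 7) and Tet1 C8, the Tet1 target, at 0.739% ± 0.816 (SD, n = 8). Of these, C2 and C11 were converted in 4.04% and 4.27% of reads only, where the rounding to 1 point leaves their ratio poorly known. The windows are shown on the guide strand with that C in capitals, followed by Tet1 C4, the bystander next in line, and by Tet2 C5, the Tet2 target (0.0575%).

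Tet1 C2: aaaaCacagtcaggagaaacgcatgg
Tet2 C11: tgaaattcaggttCtcaacgagcagg
Tet1 C8: aaaacacagtCaggagaaacgcatgg
Tet1 C4: aaaacaCagtcaggagaaacgcatgg
Tet2 C5: tgaaattCaggttctcaacgagcagg

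Of the 14 positions 9 follow a T, and Tet3 C7 is 1 of 3 that follow an A. The other such positions, Tet1 C2 and Tet1 C4, were converted in 4.04% and 39.1% of reads against 95.5% at Tet3 C7. At Tet1 C4 the converted reads were T, with means of 39.0% T, 0.0385% G and 0.0769% A. A neighbouring pair of C is not particular to Tet3 either. In the Dnmt3a window, read in the 12 labelled embryos of 5KO and 6KO, C4 and C5 were converted in 98.9% and 99.0% of reads, and non-T reads were listed at 0% of converted reads at C4 and averaged 0.127% at C5.

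Dnmt3a C4: gcagttCcaggggtcttccttaatgg
Dnmt3a C5: gcagttcCaggggtcttccttaatgg

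As a mean of the ratios of single embryos, the non-T share was 50.2% ± 20.2 (SD, n = 8) at Tet3 C7, 0.213% ± 0.234 (SD, n = 8) at Tet3 C8, 0.239% ± 0.465 (SD, n = 8) at Tet1 C4 and 0.738% ± 0.811 (SD, n = 8) at Tet1 C8. It was higher at Tet3 C7 in 8 of 8 samples in each of these 3 comparisons, by 49.99, 49.97 and 49.5 points, with p = 0.00781 (adjusted also 0.00781, exact sign-flip permutation test), the smallest p that 8 samples allow. The site was singled out with its products known, so this test is no independent evidence.

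**Figure D5:**
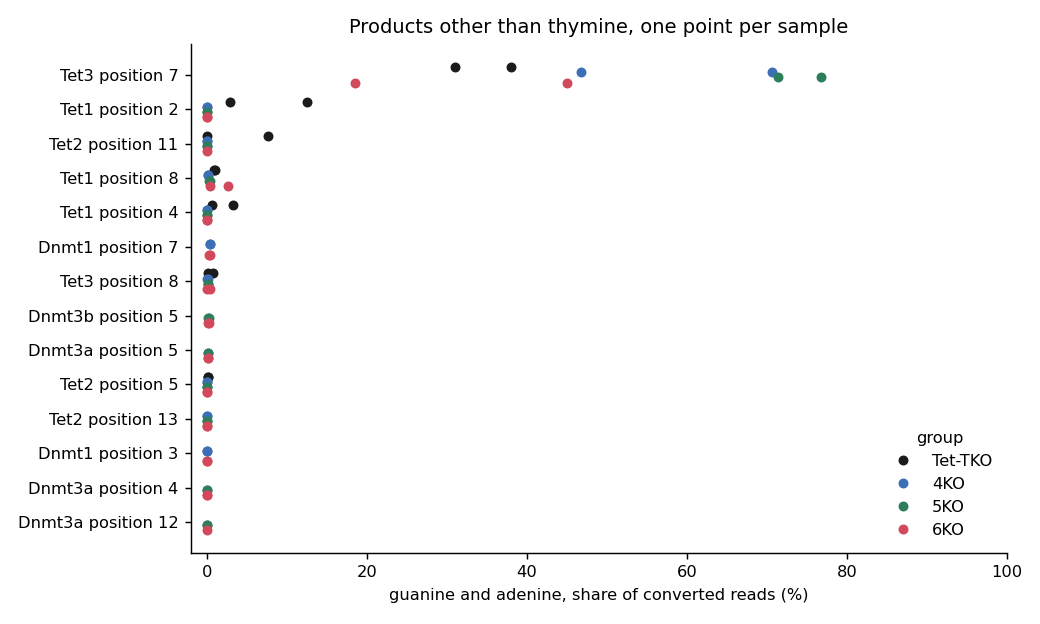
Guanine and adenine as a share of converted reads (%) for the 14 cytosine positions that reached 5% conversion in a group, 1 point per sample and coloured by group. Samples at Tet3 position 7 run from 18.5% to 76.8%. The means of the other 13 are at most 1.93%, with single samples up to 12.5% at Tet1 position 2 and 7.69% at Tet2 position 11.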

How the data were processed

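Genomic DNA of single embryos was amplified at each target site, and barcoded products were pooled and sequenced with paired-end reads. The deposited values are fractions from 0 to 1 that the authors computed: for each embryo and gene, how the reads divide among the 4 bases at each of 26 reference positions. They are given here as percentages. The submitters' processing notes name the build mm10; the aligner, base caller and read filters were not given in the sources used here. Shares have 2 decimals, with more at C8 and, in 50 of 52 windows, at G5, and add up to 100% within 1 point. Read depth is unknown, so no counting interval or detection limit is given. The reads carried no molecular identifiers, and insertions and deletions have no line in the tables. Any other table of the 7 holds no Tet3 window and was used only for its count of windows.

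Embryos were assigned to labelled samples by group and number, over all stages. The 26 Tet3 embryos with no labelled sample (13 further, 13 control) are given as values. Sample values are means over 3 or 4 embryos. No pair of samples had identical values (0). Shares were compared with exact permutation tests over samples in Python 3.11.15 with NumPy 2.4.6, two-sided, with Benjamini-Hochberg adjustment within each comparison (5, 4, 5 and 3 tests). The tests were tested on simulated data. Pairwise tests of 2 samples against 2 were not run, since their smallest p is 0.333. Windows were matched to GRCm38 and annotated with GENCODE, and the Dnmt3a window was turned to the guide strand.

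Every Tet3 position was read. C7 and C8 are always named, and another position where a base other than the reference reached 5% in a group mean or in an embryo. Other windows' C positions were set beside C7 where conversion reached 5% in a group, and the 3 with the highest non-T share are named with their targets. The members, lists and tests were chosen with earlier results of these data known. Alternatives were the median over embryos, E7.5 and E8.5 embryos only, rescaled shares, shares of converted reads, the arcsine square root, a replicate block, embryos as units (100000 resamples), summed shares, leaving out each sample and, added after seeing the data, leaving out the E9.5 embryo of Tet-TKO replicate 1.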

Additional observations from a re-analysis of the deposited data

Results flagged for a closer look

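Some embryos stood far from the others of their group, by the gap to the nearest one relative to the group's range. Of 26 sets of labelled embryos examined (7 shares in 4 groups, less 2 sets within the rounding), 8 held such an embryo. The rule takes chance to flag about 1 in 20. That rate need not hold where shares are rounded or many lie at 0, so no excess is read from the count. In Tet-TKO replicate 2 the E7.5 embryo had 11% A at C7 against 0% to 3% in the others, and 7% unconverted C against 0% to 2%. The E9.5 embryo of Tet-TKO replicate 1 had 2.35% A and G at C8 against 0.05% to 0.3%, and 3% T at C-2 against 0%. The E7.5 embryo of 5KO replicate 1 had 14% unconverted C at C7 against 1% to 4%. The E8.5 embryo of 6KO replicate 2 had 46% A at C7 against 1% to 10%. The E6.5 embryo of 6KO replicate 1 had 0.858% A and G at C8 against 0.0466% to 0.0738%. The E6.5 embryo of 6KO replicate 2 had 6% T at C-2 against 0% to 2%.

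In labelled samples C8T moved in opposite directions between E7.5 and E8.5. It was higher at E8.5 in both 5KO samples (1.54 and 1.56 points) and lower in both samples of Tet-TKO (-0.55 and -1.12 points), 4KO (-0.0699 and -0.159 points) and 6KO (-2.21 and -0.525 points). The mean stage difference of Tet-TKO minus that of 5KO was -2.38 points, that of 4KO minus 5KO was -1.66 points, and that of 5KO minus 6KO was 2.92 points. This difference between groups was not tested, and the embryos of the stages are different animals. The further embryos moved the other way in all tables but 4KO. Their C8T at E7.5 and E8.5 was 99.3% and 97.2% in 5KO, 97.5% and 99.0% in Tet-TKO, 99.84% and 99.81% in 4KO, and 96.9% and 98.8% in 6KO. In the control embryos of the 5KO table C8T was 3.27% and 1.22%, and whether this bears on the 5KO values was not tested.

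Among embryos that belong to no labelled sample, C-2T was 24% at E7.5 in the 4KO table and 6% at E9.5 in the 5KO table, above the 1% reached in control embryos.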

How the results depend on the processing

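The non-T share of converted reads stayed higher at Tet3 C7 than at Tet3 C8, Tet1 C4 and Tet1 C8 in all alternatives run, by 46.2 to 54.0, 46.1 to 53.9 and 45.6 to 53.7 points when a sample was left out. As the site was singled out with its products known, these runs add no independent evidence. Across the 4 groups no share passed 0.05 in the main test. It passed with the arcsine square root for C7G (difference between highest and lowest group 46.2 points, adjusted p = 0.0476, exact permutation test) and unconverted C7 (10.55 points, adjusted p = 0.0476, exact permutation test). With each embryo as the unit it passed for C7T (39.7 points), C7G (41.5), unconverted C7 (13.2) and C8T (2.17), each with an adjusted p of 0.0281 by permutation, where embryos of a sample count as independent. Without the E9.5 embryo of Tet-TKO replicate 1 it passed for C7G (41.5 points) and C8T (2.17 points). With E7.5 and E8.5 embryos only, or with medians over embryos, no share passed. Leaving out a sample gave 36.4 to 42.9 points for C7T, 37.0 to 46.0 for C7G, 10.8 to 28.4 for C7A, 9.33 to 17 for unconverted C7 and 1.40 to 2.94 for C8T, none past 0.05. With and without Dnmt sgRNAs no alternative passed 0.05, although with a replicate block or without a Tet-TKO sample none could have. Over E7.5 and E8.5 embryos only, the difference was -4.92 points for C7G, -6.5 for C7T and 0.167 for unconverted C7. With medians over embryos it was 2.42 for C7G, 7 for C7A and 2.25 for unconverted C7. Leaving out a sample gave -28.2 to -19.3 points for C7T, 1.56 to 10.8 for C7G, 9.75 to 15.3 for C7A and 1.65 to 5.05 for unconverted C7. For E8.5 against E7.5 these ranges were -11.3 to -0.429 for C7T, -8.71 to 3.43 for C7G, 6.14 to 14.7 for C7A, -4 to -2.57 for unconverted C7 and -0.442 to 0.0964 for C8T. The C7G difference turned positive without 4KO replicate 2 (3.43), 5KO replicate 2 (0.286) or 6KO replicate 2 (1.29), and that of C8T without 6KO replicate 1 (0.0964). Whether the replicate numbers pair the samples was not settled with 2 samples per group. Over the 6 pairs of groups, deviations of equal numbers correlated from -0.539 to 0.936. The correlations were 0.743, 0.936 and 0.847 among 4KO, 5KO and 6KO. Between Tet-TKO and these groups they were -0.517, -0.118 and -0.539. With a replicate block the adjusted p across groups was 0.125 for C7G (exact permutation test). The block only limits the relabellings allowed, so the size of a difference stays as it was. No call changed under the block. Its smallest p before adjustment is 0.0417 across groups and 0.0625 with and without Dnmt sgRNAs, where no share could have passed. Across groups a share could have passed after adjustment only with all 5 shares at the smallest p, so the block was a weak check. With unknown depth and rounding to 1 point, differences of about 1% at C7 are not resolved.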
